A study of Rattus norvegicus with 52 samples.

Results

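The endothelin system was read in rat kidney through every Affymetrix probe set that the platform annotation assigns to one of 5 genes: the ligand genes Edn1 and Edn3, the receptor genes Ednra and Ednrb, and Ece1, the gene of the endothelin-converting enzyme. A probe set is a group of short probes that report together on 1 transcript. The rule found 2 probe sets among 31256 on both chips, 1 for Edn1 and 1 for Ece1, both on the RAE230A chip. The annotation used here names no probe set for the other 3 genes, Edn3, Ednra and Ednrb, whose levels were not analysed here. RefSeq places Edn1 on rat chromosome 17, Ece1 on chromosome 5, Edn3 on chromosome 3, Ednra on chromosome 19 and Ednrb on chromosome 15.

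The study compared Dahl salt-sensitive S rats with 2 congenic strains, ET3x1 and ET3x2, in which a stretch of chromosome from the salt-resistant R strain was bred into S. The 26 rats, males only, were weaned at 30 days onto a diet with 0.4% NaCl and were killed at 40 to 42 days. The rats of the high-salt groups were moved to 4% NaCl at 39 to 41 days and stayed on it for 24 hours. Each diet was fed to 5 S, 4 ET3x1 and 4 ET3x2 rats, giving 6 groups. Kidney RNA of each rat was hybridised to both chips, and the values are the authors' log2 values, 1 per probe set and rat. Nothing in the labels says that the rats of a group came from separate litters.

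Endothelins are short peptides cut from longer precursors, and endothelin-converting enzyme makes the final cut. They act on 2 receptors: the A receptor, which constricts vessels, and the B receptor, which releases nitric oxide and prostaglandins from endothelium and clears the peptide. In kidney, the collecting duct is a main source of endothelin-1, which there lowers reabsorption of sodium and water through the B receptor.

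The 250 bases before the RefSeq start of the 2 measured genes are shown because they carry letters long described for these genes. The motifs were chosen with these sequences in view, and their matches are given as a description. The sequences come from RefSeq (GRCr8) and run 5′ to 3′ on the strand of the gene, Edn1 from the minus strand at chr17:22666688-22666937 and Ece1 from the plus strand at chr5:155360781-155361030. Capitals mark motif matches on either strand.
Edn1: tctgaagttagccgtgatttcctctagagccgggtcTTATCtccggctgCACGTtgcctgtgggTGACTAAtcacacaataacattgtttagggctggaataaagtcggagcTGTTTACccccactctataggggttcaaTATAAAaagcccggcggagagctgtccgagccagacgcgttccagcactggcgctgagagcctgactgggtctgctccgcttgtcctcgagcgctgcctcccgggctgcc
Ece1: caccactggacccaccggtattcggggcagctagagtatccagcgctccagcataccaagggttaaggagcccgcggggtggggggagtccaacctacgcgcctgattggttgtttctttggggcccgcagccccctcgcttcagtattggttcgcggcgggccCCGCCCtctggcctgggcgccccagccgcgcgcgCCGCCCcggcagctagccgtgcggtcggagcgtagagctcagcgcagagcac
In the Edn1 sequence, position -214 began a match to the GATA motif GATAA on the opposite strand, a motif that 23.5% of 33469 rat promoters of this length hold on either strand. At -201 the hypoxia response core ACGTG matched on the opposite strand, as it does in 16.6% of promoters. At -186 stood the AP-1 variant TGACTAA, found in 1.99% of promoters, at -138 the forkhead motif TGTTTAC, found in 3.21%, and at -110 the TATA box letters TATAAA, found in 12.9%. No 2 of these matches overlapped. The Ece1 sequence held none of these 5 motifs. It held the GC box GGGCGG on the opposite strand at -86 and -52, and 30.5% of promoters hold that motif. Neither sequence held the AP-1 consensus TGANTCA, which 6.34% of promoters hold. The Ece1 sequence had 69.2% G and C and the Edn1 sequence 56.4%, against a mean of 52.2% over all promoters.

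The ligand gene Edn1 was dim in whole kidney. Its mean over the 26 rats was 6.46 (log2), at the 30.0th percentile of its chip, whose probe sets had a median of 7.51. Ece1 was brighter, with a mean of 8.61 at the 73.2nd percentile. These are places on the chip, and the brightness of one probe set is not comparable with that of another as an amount of RNA. Edn1 ranged from 6.23 to 6.76, a 1.44-fold range, and Ece1 from 8.46 to 8.91, a 1.37-fold range. The spread of rats about their group means was 0.111 (SD, log2) for Edn1, beside a median of 0.113 over the 1587 probe sets within 5 percentiles of its brightness, and 0.0999 for Ece1, beside 0.123.

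Array medians lay between 7.47 and 7.52 on RAE230A and between 6.34 and 6.40 on RAE230B. All 7 of 7 proximal tubule markers stood at or above the 90th percentile of their chip, and 0 of 4 adrenal and 0 of 4 liver markers did, so the defining markers of kidney were present. The high-salt ET3x1 rats stood apart in array quality measures. The 3' to 5' ratio of Gapdh is a measure of how evenly the RNA was copied. It and the beta-actin ratio are given in log2, as 3' minus 5' end, so a lower value is a smaller excess of the 3' end. On RAE230A the Gapdh ratio of these rats was 0.594 ± 0.0265 (SD, n = 4) against 0.877 ± 0.0994 (n = 4) on low salt. The groups did not overlap (exact permutation test, two-sided, p = 0.0286, the smallest that 4 against 4 rats allow, and 0.0857 after adjustment over 9 tests). In the S rats on high salt, replicates 1 and 2 had spike-in differences, bioD minus bioC, of 1.65 and 1.55 on RAE230A, below all other rats. On RAE230B they had 2.164 and 1.865, and there some other rats lay below replicate 1.

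Edn1 was read first in each rat. The 5 S rats on low salt had Edn1 values of 6.76, 6.39, 6.35, 6.42 and 6.37 (mean 6.46 ± 0.168 SD). The 5 S rats on high salt had 6.43, 6.43, 6.46, 6.31 and 6.45 (6.41 ± 0.0605). One low-salt S rat stood above the rest of its group, and apart from it the S groups covered nearly the same values.

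The 4 ET3x1 rats on low salt had Edn1 values of 6.50, 6.23, 6.40 and 6.37 (6.38 ± 0.113). The 4 ET3x1 rats on high salt had 6.57, 6.59, 6.68 and 6.57 (6.60 ± 0.0524). All high-salt ET3x1 rats lay above all low-salt ET3x1 rats, and above all S and ET3x2 rats on high salt as well. The ET3x2 rats had 6.46, 6.35, 6.70 and 6.45 on low salt (6.49 ± 0.151) and 6.44, 6.40, 6.50 and 6.43 on high salt (6.44 ± 0.0403), with the high-salt range inside the low-salt one.

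By group mean, Edn1 ran from ET3x1 high salt through ET3x2 low salt, S low salt, ET3x2 high salt and S high salt down to ET3x1 low salt. The ranges of every pair of neighbours in that order overlapped.

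**Figure D1:**
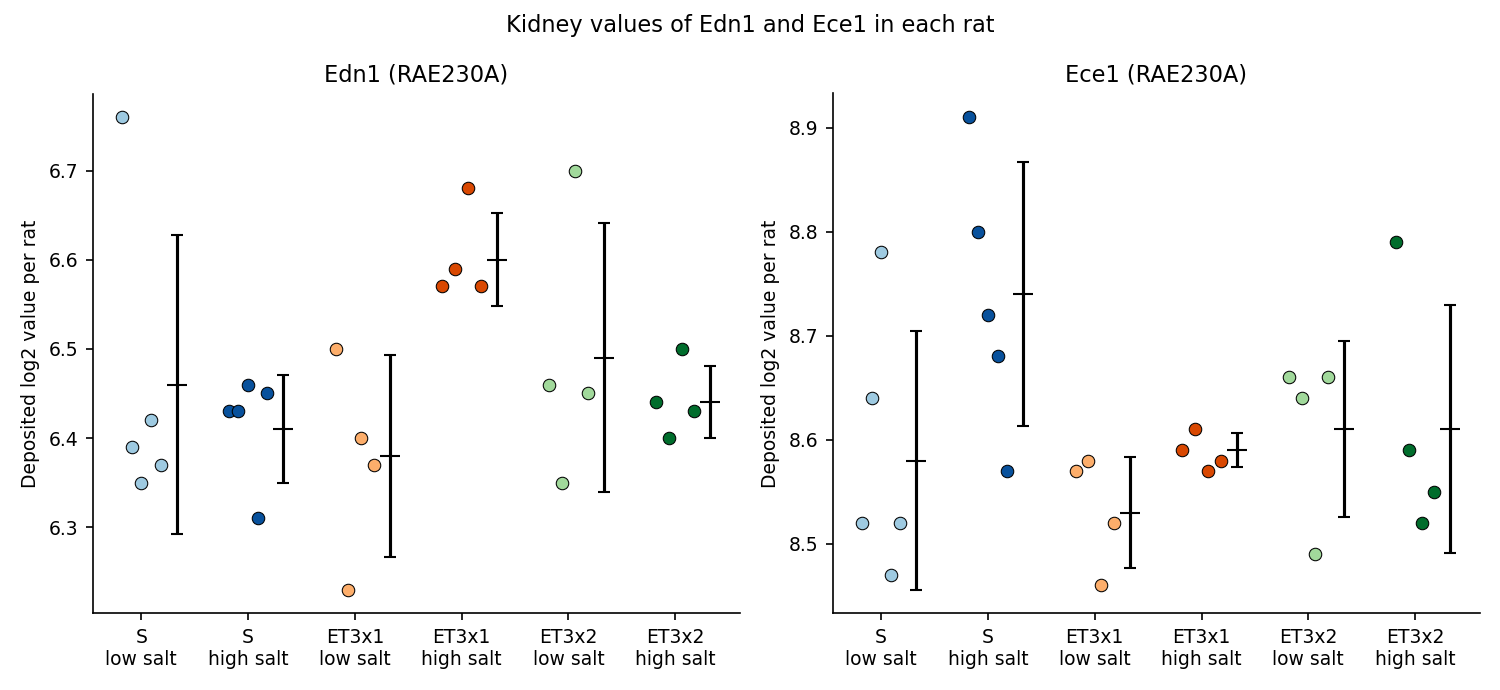
Each point is the deposited log2 value of 1 rat (vertical axis) for Edn1 (left) and Ece1 (right) in the 6 groups of strain and diet (horizontal axis), and the bar beside the points is the group mean ± SD (n = 4 or 5). The 4 high-salt ET3x1 rats lie between 6.57 and 6.68 for Edn1, above all low-salt ET3x1 rats, and the highest Ece1 value, 8.91, belongs to an S rat on high salt.

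The 16 comparisons of strain and diet were each fitted with limma over 31042 probe sets, and a probe set was called at an adjusted p below 0.05. Neither Edn1 nor Ece1 was called in any of them. At an unadjusted limma p below 0.05 there were 4 comparisons for Edn1 and 2 for Ece1.

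Between strains, averaged over both diets, Edn1 differed by 0.03 ± 0.05 (log2 difference ± SE) for ET3x2 minus S, by 0.05 ± 0.05 for ET3x1 minus S and by -0.02 ± 0.06 for ET3x2 minus ET3x1. The 95% intervals reached from -0.08 to 0.14, from -0.05 to 0.16 and from -0.14 to 0.09, so a difference of more than 1.12-fold either way lay outside each of them. The adjusted p values were 0.713, 0.461 and 0.822. Of all probe sets 24.8%, 30.4% and 9.84% were called in these comparisons, and 0 of the 2 endothelin probe sets were. The median sizes of the difference over all probe sets were 0.0882, 0.0971 and 0.0759, all above those of Edn1.

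Ece1, which encodes the membrane protease that releases active endothelin, differed by -0.05 ± 0.05 for ET3x2 minus S (adjusted p = 0.532) and by -0.10 ± 0.05 for ET3x1 minus S (95% interval -0.21 to 0.00, adjusted p = 0.131). ET3x2 minus ET3x1 gave 0.05 ± 0.05 (adjusted p = 0.539). Without the pair of high-salt S rats of lowest bioD minus bioC the differences from S were -0.01 for ET3x2 and -0.06 for ET3x1. With array weights, which let noisier arrays count less, Ece1 was called lower in ET3x1 than in S (-0.12, adjusted p = 0.0466), in a fit that called 31.1% of all probe sets.

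Salt was then compared with low salt. Over the 3 strains, where 9.37% of probe sets were called, the high-salt rats differed in Edn1 by 0.05 ± 0.04 (adjusted p = 0.57) and in Ece1 by 0.07 ± 0.04 (adjusted p = 0.344). Both intervals included 0.

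Within strains, the largest Edn1 difference was that of ET3x1, 0.23 ± 0.08 higher on high salt (95% interval 0.07 to 0.39), or 1.17-fold, with an adjusted p of 0.0639. In this comparison 10.1% of all probe sets were called, and the median size of the difference was 0.0962. The 4 high-salt and 4 low-salt values did not overlap, which was also so for 14.8% of all probe sets (exact permutation test, two-sided, p = 0.0286, and 0.171 after adjustment over 18 tests on the 2 genes). In S the difference was -0.04 ± 0.07 (adjusted p = 0.831) and in ET3x2 -0.05 ± 0.08 (adjusted p = 0.892), in comparisons that called 1.22% and 0.351% of probe sets.

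The differences between salt responses were tested directly. For Edn1 the salt response of ET3x1 exceeded that of S by 0.27 ± 0.11 (95% interval 0.05 to 0.48, adjusted p = 0.169), and that of ET3x2 minus that of ET3x1 was -0.27 ± 0.11 (-0.50 to -0.05, adjusted p = 0.268). For ET3x2 minus S it was 0.00 ± 0.11 (-0.22 to 0.21). These comparisons called 2.54%, 0.0934% and 0.0258% of all probe sets. None of the 3 differences in Edn1 was called, so a salt response of Edn1 particular to ET3x1 was not shown.

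Whether Edn1 in ET3x1 passed the threshold turned on the setting. Array weights called it (0.22, adjusted p = 0.00655) in a fit that called 20.2% of probe sets. It was also called when 1 of 3 low-salt rats was left out: S replicate 1 (0.23, adjusted p = 0.0216, where 11.4% of probe sets were called), ET3x1 replicate 1 (0.27, adjusted p = 0.0308, where 14.5% were called) or ET3x2 replicate 3 (0.23, adjusted p = 0.0416, where 10.8% were called). S replicate 1 and ET3x2 replicate 3 were the highest low-salt Edn1 values and enter this comparison only through the shared estimate of spread. Leaving out ET3x1 low-salt replicate 2, the lowest of all Edn1 values, gave 0.18, and over all 26 rats left out in turn the adjusted p ran from 0.0216 to 0.226.

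**Figure D2:**
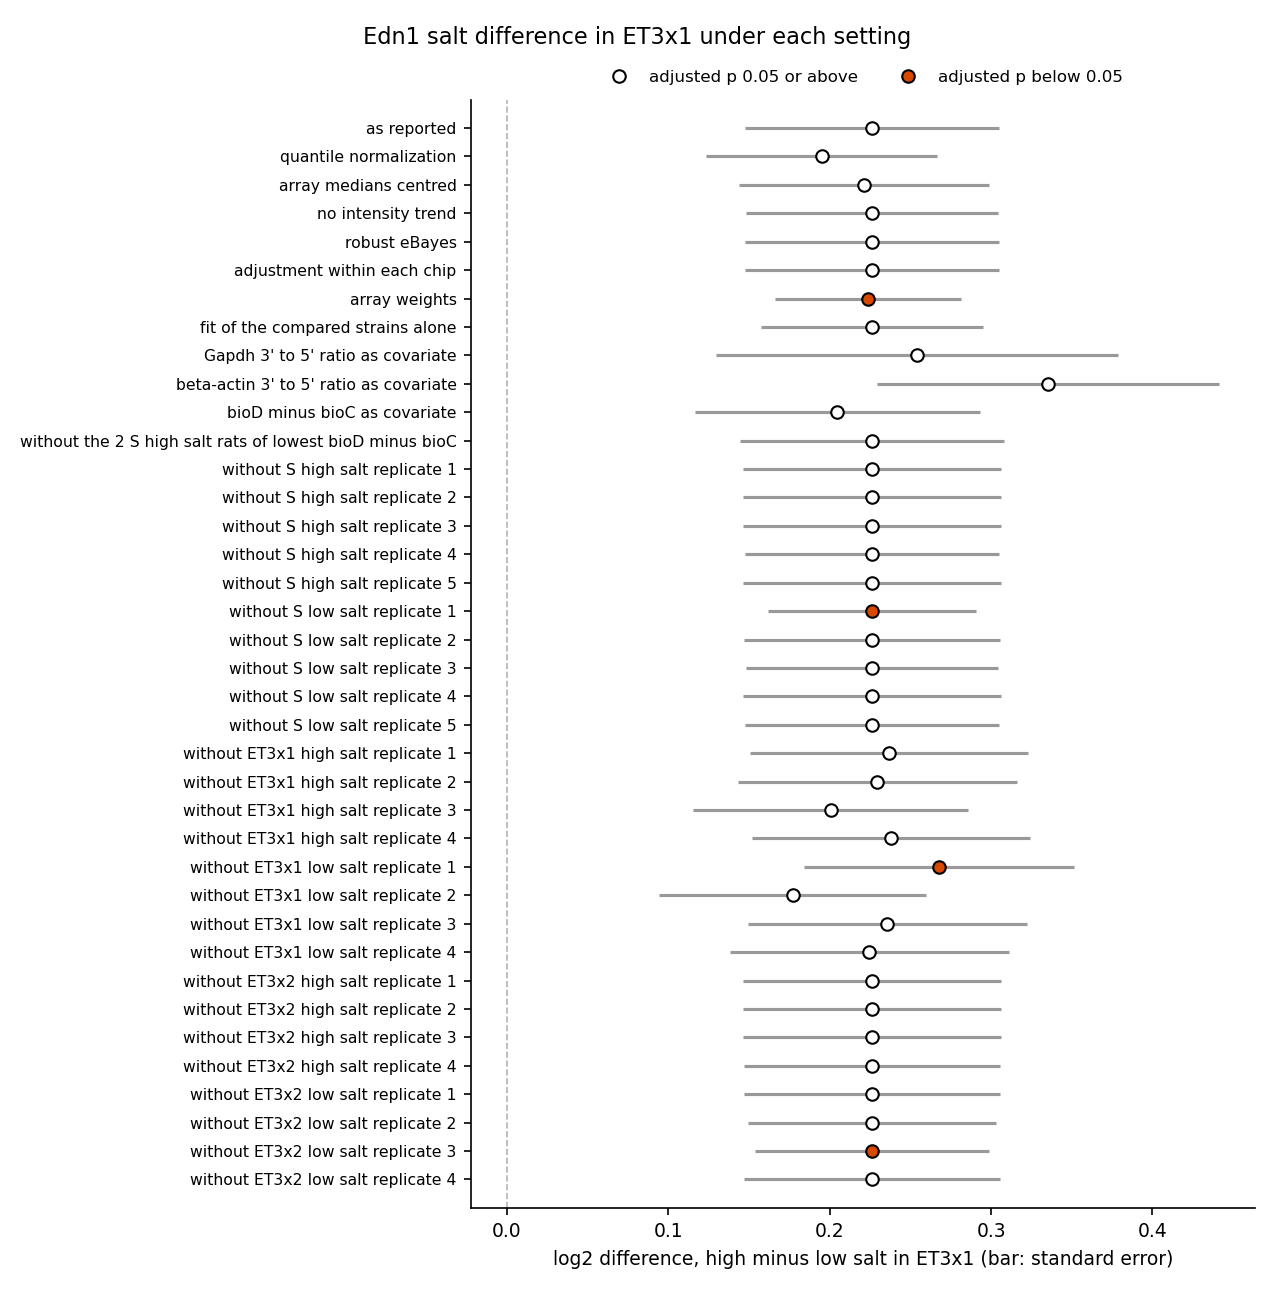
The log2 difference of Edn1 between high and low salt in ET3x1 (horizontal axis; point with its standard error) is drawn for the reported fit and for each other setting or left-out rat (rows). All values lie above 0, from 0.18 to 0.34, and 4 settings, in orange, have an adjusted p below 0.05.

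The quality measures moved with this result. The high-salt ET3x1 rats had the lowest Gapdh ratios of all 26 rats together with the non-overlapping Edn1 values. On RAE230A their beta-actin 3' to 5' ratio (log2) was 0.609 ± 0.101 against 1.22 ± 0.245 on low salt, and bioD minus bioC was 3.08 ± 0.15 against 2.54 ± 0.236. With the Gapdh ratio as a covariate, the Edn1 difference was 0.25 and its standard error grew to 0.12 (adjusted p = 0.471), and 0.0193% of all probe sets were called. With beta-actin it was 0.34 (adjusted p = 0.0826) and with bioD minus bioC 0.20 (adjusted p = 0.239), in fits that called 2.71% and 3.6% of all probe sets. The difference was thus as large with the Gapdh and beta-actin ratios in the fit, and was not called in any of the 3. Within ET3x1 these ratios and the diet did not overlap between groups, and their parts in the Edn1 values cannot be told apart.

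In the high-salt ET3x1 rats, where the Edn1 mean was highest, endothelial and podocyte markers were both at their lowest group mean. The mean level of 12 measured endothelial markers ran from 8.22 to 8.25 in the high-salt ET3x1 rats and from 8.34 to 8.44 on low salt. Podocyte markers ran from 7.23 to 7.38 and from 7.35 to 7.57. Proximal tubule markers did not overlap between these diets either, at 11.88 to 11.93 and 11.96 to 12.1. Smooth muscle and pericyte markers were higher on high salt, at 7.81 to 7.85 against 7.71 to 7.79. Among single probe sets, 14.8% did not overlap between the ET3x1 diets. Of the 12 endothelial markers, 3 fell with salt in ET3x1 and 0 rose, beside 10.1% of all probe sets called in that comparison. Vwf, which encodes von Willebrand factor, had a difference of -0.54 ± 0.13 (adjusted p = 0.00923), Ptprb, an endothelial phosphatase gene, of -0.38 ± 0.09 (adjusted p = 0.00734), and the tight junction gene Cldn5 of -0.27 ± 0.08 (adjusted p = 0.0397). Vwf and Cldn5 lay below the median of their chip, at the 43.3rd and 38.5th percentiles, and Ptprb stood at the 83.4th. Once the Gapdh ratio entered the fit, in which few probe sets were called, the differences were -0.34 for Vwf, -0.42 for Ptprb and -0.19 for Cldn5, all uncalled. Vwf was called with beta-actin (-0.68, adjusted p = 0.0449) and with bioD minus bioC (-0.56, adjusted p = 0.0336), and the others were not. Of 9 smooth muscle and pericyte markers 2 (22.2%) rose, Tagln (0.57 ± 0.17, adjusted p = 0.028) and Acta2 (0.47 ± 0.11, adjusted p = 0.00457), which also rose with salt in S (0.70 ± 0.15, adjusted p = 0.0167, and 0.49 ± 0.09, adjusted p = 0.00649). In ET3x1 neither was called with the Gapdh ratio (0.42 and 0.25) or with beta-actin (0.27 and 0.51) as a covariate, and in S Tagln was uncalled with beta-actin (0.59) and bioD minus bioC (0.62). Without the pair of high-salt S rats of lowest bioD minus bioC, neither was called in S (0.64, adjusted p = 0.169, and 0.40, adjusted p = 0.138), and Cldn5 in ET3x1 was not (-0.27, adjusted p = 0.0508). Among 9 collecting duct markers 1 rose and 1 fell (22.2%), and their mean level ran from 8.74 to 8.91 on high salt and from 8.82 to 8.89 on low salt. In whole kidney, fewer cells of a type and less RNA per cell cannot be told apart, and the part of the cell makeup in the Edn1 values was not tested.

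Strains were also compared within each diet. On high salt, Edn1 in ET3x1 minus S was 0.19 ± 0.07 (95% interval 0.04 to 0.34, adjusted p = 0.0949), where 12.7% of probe sets were called. The ranges did not overlap, which held for 13.4% of all probe sets (exact permutation test, two-sided, p = 0.0159, and 0.171 after adjustment). This difference was called with array weights (0.21, adjusted p = 0.0132, where 13.4% were called) and without S low-salt replicate 1 (0.19, adjusted p = 0.0401, where 14.0% were called).

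For ET3x2 minus ET3x1 on high salt, Edn1 gave -0.16 ± 0.08 (adjusted p = 0.217, with 6.91% of probe sets called). The ranges again did not overlap, as for 15.6% of all probe sets, and ET3x2 minus S gave 0.03 ± 0.07 (adjusted p = 0.879, with 3.09% called). The comparisons that hold ET3x1, against S and against ET3x2, share their high-salt ET3x1 rats with the salt comparison in that strain and are not independent of it.

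On low salt, ET3x2 minus S, ET3x1 minus S and ET3x2 minus ET3x1 gave Edn1 differences of 0.03 ± 0.07, -0.08 ± 0.07 and 0.11 ± 0.08, with adjusted p of 0.815, 0.447 and 0.492. Of all probe sets 15.2%, 23.2% and 2.72% were called. The ranges of Edn1 overlapped in each of these pairs.

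Edn1 varied more between rats on low salt than on high salt. Its SD within groups, pooled over the strains, was 0.148 on low salt and 0.0527 on high salt, a ratio of 2.81. Over all tested probe sets the median of this ratio was 1.10, and 98.6% had a lower ratio than Edn1. Without S low-salt replicate 1, the ratio was 2.09. For Ece1 it was 0.921. Each strain alone had a low-salt SD more than 2 times the high-salt SD for Edn1, a pattern seen in 277 of 31042 probe sets (0.892%). In each strain it rested on 1 low-salt rat. Without S replicate 1 the low-salt SD of S was 0.0262, below its high-salt SD of 0.0605, and without ET3x1 replicate 2 or ET3x2 replicate 3 the ratio of that strain was 1.29 or 1.58. The pattern was noticed in these values and no test was made of it.

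For Ece1, the 5 S rats on low salt had values of 8.52, 8.64, 8.78, 8.47 and 8.52 (8.58 ± 0.124). On high salt they had 8.91, 8.80, 8.72, 8.68 and 8.57 (8.74 ± 0.127). The high-salt S rats lay mostly above the low-salt ones, with an overlap from 8.57 to 8.78.

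The ET3x1 rats had Ece1 values of 8.57, 8.58, 8.46 and 8.52 on low salt (8.53 ± 0.0529) and 8.59, 8.61, 8.57 and 8.58 on high salt (8.59 ± 0.0165). The ET3x2 rats had 8.66, 8.64, 8.49 and 8.66 on low salt (8.61 ± 0.0846) and 8.79, 8.59, 8.52 and 8.55 on high salt (8.61 ± 0.119). High-salt ET3x1 rats were the tightest group, and the diets overlapped in both congenic strains. In order of means, S high salt was first and ET3x1 low salt last, and all neighbours overlapped.

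With salt in S, Ece1 was 0.15 ± 0.07 higher (95% interval 0.01 to 0.29), or 1.11-fold, with an adjusted p of 0.297. It was 0.05 ± 0.08 in ET3x1 (adjusted p = 0.713) and 0.00 ± 0.08 in ET3x2 (adjusted p = 0.999). The salt responses of ET3x2 and ET3x1 minus that of S were -0.15 ± 0.10 (adjusted p = 0.723) and -0.10 ± 0.10 (adjusted p = 0.661), and that of ET3x2 minus that of ET3x1 was -0.06 ± 0.11 (adjusted p = 0.854).

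The S rats with the highest Ece1, replicates 1 and 2 on high salt at 8.91 and 8.80, were the pair with the lowest bioD minus bioC on RAE230A, the chip of Ece1. Without both of them, the salt difference of Ece1 in S was 0.07 ± 0.07 (adjusted p = 0.859), and with bioD minus bioC as a covariate it was 0.08 ± 0.07 (adjusted p = 0.729). The difference was thus smaller by about the same amount either way. These settings are not independent, since the pair also holds the extreme bioD minus bioC values of its group.

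Between strains on high salt, Ece1 differed by -0.15 ± 0.07 for ET3x1 minus S (adjusted p = 0.175), by -0.12 ± 0.07 for ET3x2 minus S (adjusted p = 0.351) and by 0.03 ± 0.08 for ET3x2 minus ET3x1 (adjusted p = 0.877). On low salt the same differences were -0.05 ± 0.07 (adjusted p = 0.623), 0.03 ± 0.07 (adjusted p = 0.824) and 0.08 ± 0.08 (adjusted p = 0.631). Without the pair of S rats of lowest bioD minus bioC, the high-salt differences from S were -0.07 for ET3x1 and -0.04 for ET3x2, and with bioD minus bioC as a covariate -0.04 and -0.08. No pair of strains was called on either diet.

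**Figure D3:**
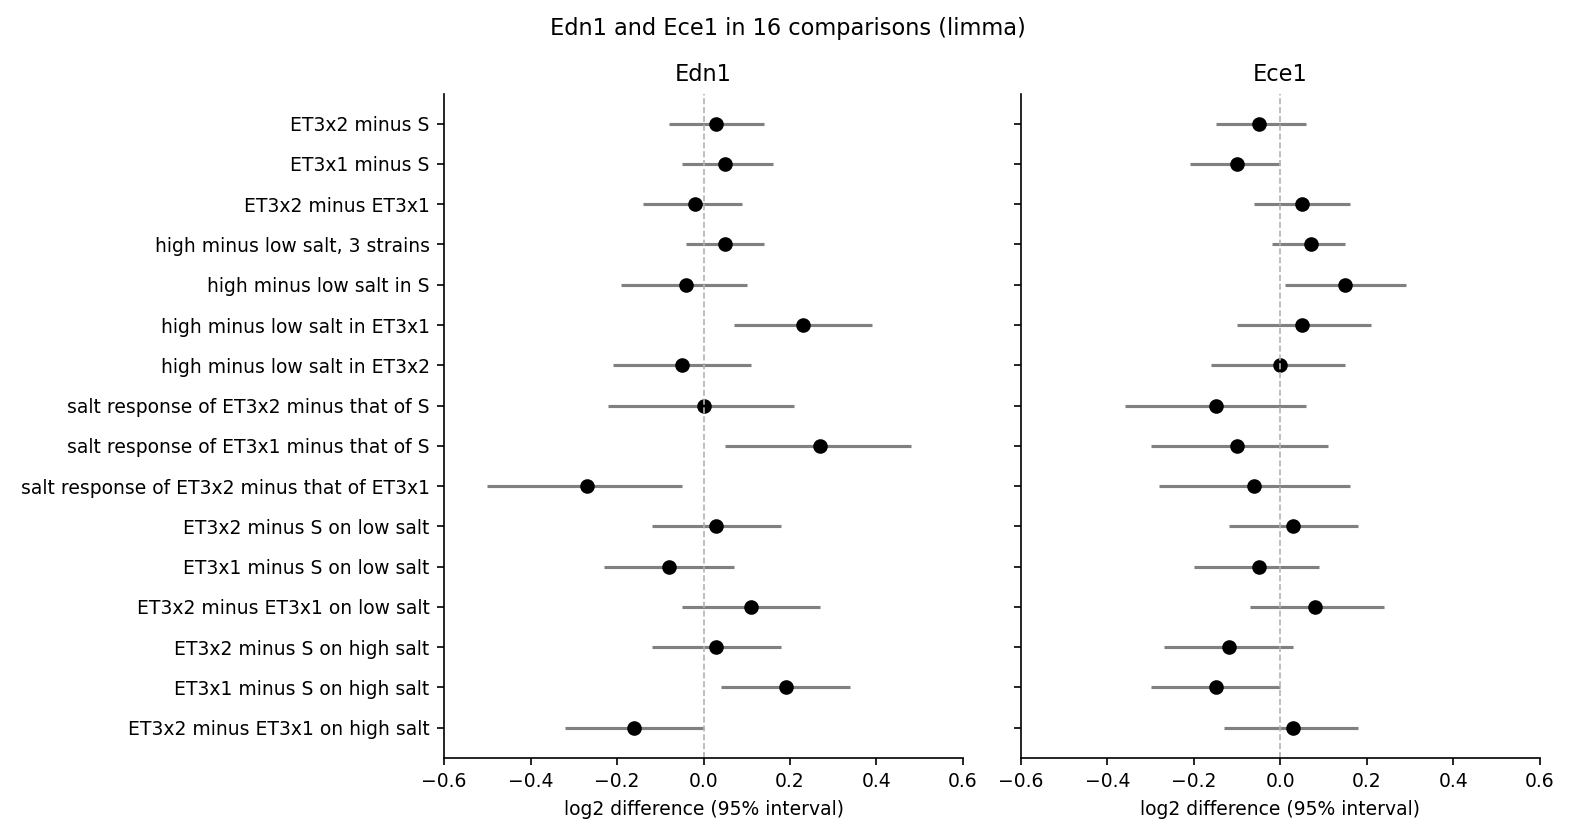
Points are log2 differences from the limma fit (horizontal axis) and lines their 95% intervals for the 16 comparisons (rows) of Edn1 (left) and Ece1 (right). The Edn1 interval for salt in ET3x1, 0.07 to 0.39, lies above 0 before adjustment over all probe sets, and neither gene was called in any comparison.

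**Figure D4:**
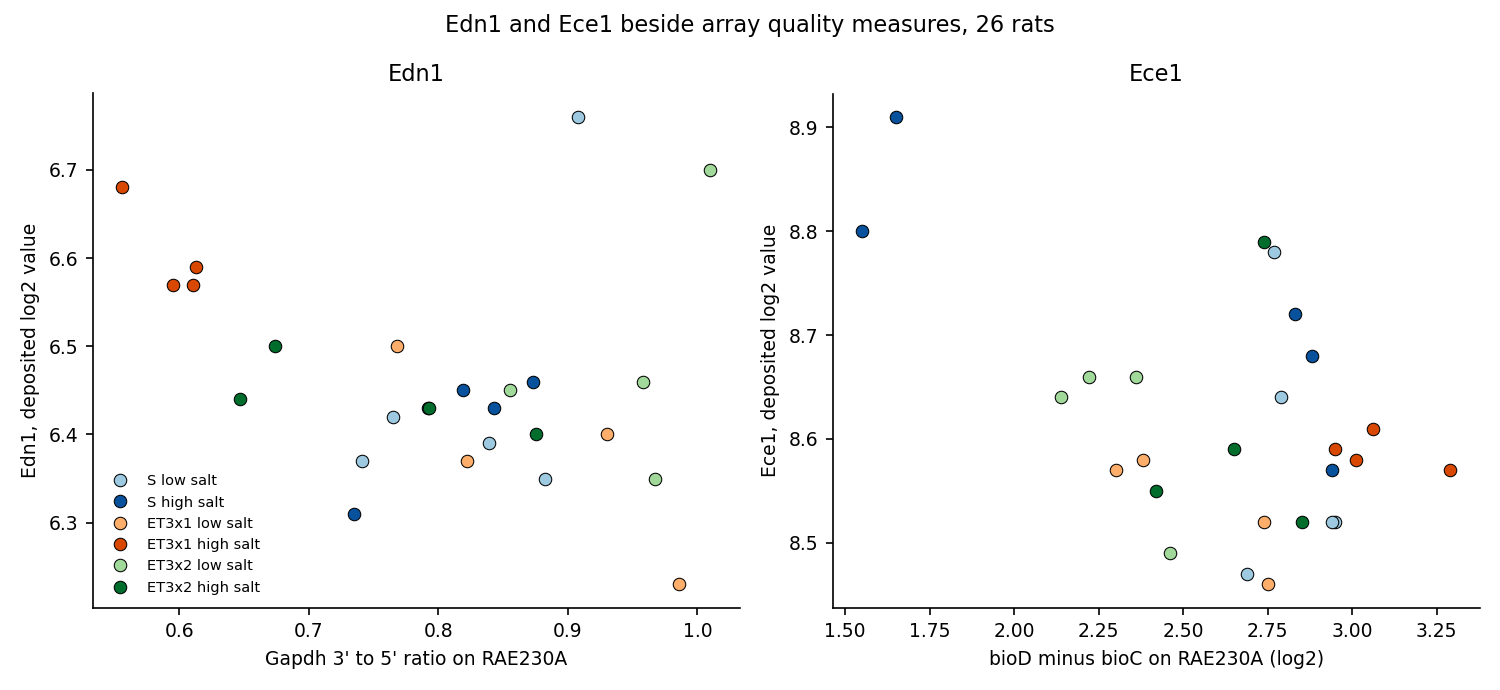
Left, the Edn1 value of each of the 26 rats (vertical axis, log2) against the Gapdh 3' to 5' ratio on RAE230A (horizontal axis, log2). Right, Ece1 against bioD minus bioC on RAE230A (log2), with colours for the 6 groups. The high-salt ET3x1 rats sit at the left edge of the Edn1 plot, and S high-salt replicates 1 and 2 sit at the upper left of the Ece1 plot with 8.91 and 8.80.

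Edn1 and Ece1 were compared across rats. Over the 26 rats Pearson's r was -0.26 (permutation p = 0.191) and Spearman's rho -0.21 (permutation p = 0.296), the only relation tested between the members. Without the 2 rats farthest from the median of Edn1, r was -0.10. Within strains, r was -0.30 in 10 S rats, 0.41 in 8 ET3x1 rats and -0.52 in 8 ET3x2 rats, as descriptions of few rats with no test of their differences.

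The genes whose values ran most like Edn1 over the 26 rats were Sdc3, for the cell surface proteoglycan syndecan-3 (r = 0.71), Trpv6, for an epithelial calcium channel (r = 0.70), and Sdcbp2, for a syntenin (r = 0.70). With group means removed, the correlations were 0.57, 0.81 and 0.72. For Ece1 they were Hspa4l, a heat shock protein gene (r = 0.78), the deacetylase gene Hdac6 (r = 0.77) and Col18a1, a basement membrane collagen gene (r = 0.77), with 0.71, 0.73 and 0.73 after removal. They are the highest of about 8825 genes compared on the same arrays, and are given as a description.

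Edn2, the gene of the closely related ligand endothelin-2, and Ece2, for a related converting enzyme, were dim too, at the 34.1st percentile for Edn2 and the 40.2nd and 35.1st for the 2 Ece2 probe sets. None of them was called in any of the 16 comparisons. For Edn2 the difference nearest to a call was ET3x2 minus ET3x1, -0.21 ± 0.07 (adjusted p = 0.0518). Its group means ran from 6.55 in ET3x2 on low salt to 6.85 in ET3x1 on high salt, the group in which Edn1 was also highest.

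Other genes of the pathway were counted in 5 lists, 1 probe set per gene, with 82 genes measured. Against S, 12 were higher and 17 lower in ET3x2 (35.4% of the 82, beside 24.8% of all probe sets), and 15 were higher and 14 lower in ET3x1 (35.4%, beside 30.4%). Between the congenic strains 5 were higher and 3 lower in ET3x2 (9.76%, beside 9.84%). With salt over the 3 strains 4 rose and 3 fell (8.54%, beside 9.37%), and with salt in ET3x1 2 rose and 5 fell (8.54%, beside 10.1%). The shares were not tested against the background, which also covers probe sets dimmer than the brightest of a gene, and directions were mixed. Some of the pathway genes named below were dim, below the median of their chip. Ecel1 stood at the 19.6th percentile, Rgs2 at the 27.4th, Gna11 at the 34.8th and Foxo1 at the 35.4th. Gucy1b1 stood at the 37.9th, Ptgs1 at the 38.7th, Grk2 at the 40.5th and Mmel1 at the 47.5th, and the other named genes lay above the median. Markers of other cell types moved with strain as well: all 5 of 5 measured podocyte markers were lower in ET3x2 and in ET3x1 than in S (median differences -0.34 and -0.50), and 4 of 8 leukocyte markers were higher in each (medians 0.20 and 0.18) and 0 lower. Of 9 smooth muscle and pericyte markers, 1 was higher and 3 lower in ET3x2 than in S (44.4%, median -0.15). In ET3x1, 3 of them were higher and 2 lower (55.6%, median 0.01). The part of these cell types in the pathway differences, that of Mylk below among them, was not tested.

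Among 10 genes of ligand processing and clearance, 1 was higher and 1 lower in ET3x2 than in S. Ecel1, a peptidase gene related to Ece1, was 0.26 ± 0.04 higher (adjusted p = 0.000246), and Mme, the gene of neprilysin, which degrades endothelins, was lower at -0.28 ± 0.07 (adjusted p = 0.00405). The list's median difference was 0.03, and that of all probe sets 0.0108. In ET3x1, Ecel1 (0.18 ± 0.04, adjusted p = 0.00292) and the neprilysin-like Mmel1 (0.23 ± 0.06, adjusted p = 0.00449) were higher and none was lower. With salt none of the 10 was called, either over the 3 strains or in ET3x1.

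Of 17 regulators of Edn1 transcription, 3 were higher and 4 lower in ET3x2 than in S (41.2%, beside 24.8% of all probe sets). The glucocorticoid receptor gene Nr3c1 was lower (-0.38 ± 0.08, adjusted p = 0.00143), as was the hypoxia factor gene Hif1a (-0.37 ± 0.06, adjusted p = 0.000208), and the forkhead factor gene Foxo1 was higher (0.31 ± 0.06, adjusted p = 0.000366). The list's median difference was 0.01. In ET3x1 3 were higher and 4 lower than in S (41.2%, beside 30.4%). Among those lower were Tgfbr1, a receptor gene of TGF-beta (-0.26 ± 0.05, adjusted p = 0.000651), and the shear-responsive factor gene Klf4 (-0.29 ± 0.07, adjusted p = 0.00491). Tgfb1, a TGF-beta ligand gene, was higher (0.26 ± 0.1, adjusted p = 0.0485). Its call was lost without any of 19 of the 26 rats (adjusted p up to 0.103). It was also lost with the Gapdh ratio (0.23) or beta-actin (0.21) as a covariate.

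With salt in ET3x1, 1 of these 17 regulators rose and 2 fell (17.6%, beside 10.1% of all probe sets). Foxo1 fell (-0.35 ± 0.08, adjusted p = 0.00705), as did Rela, an NF-kappaB subunit gene (-0.24 ± 0.08, adjusted p = 0.0417), while Smad2, which carries TGF-beta signals, rose (0.24 ± 0.08, adjusted p = 0.0428). With the Gapdh ratio as a covariate Foxo1 was at -0.30, Rela at -0.07 and Smad2 at 0.16, all uncalled. Here and below, fits of salt in ET3x1 with the Gapdh ratio, beta-actin and bioD minus bioC called 0.0193%, 2.71% and 3.6% of all probe sets. Foxo1 was called with beta-actin (-0.44, adjusted p = 0.0381) and bioD minus bioC (-0.38, adjusted p = 0.0211), and Rela and Smad2 were not. The calls of Rela and Smad2 were lost when single rats were left out (6 and 8 of the 26, adjusted p up to 0.178 and 0.145). Edn1 itself was 0.23 higher in that comparison and not called.

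Of 29 measured genes of receptor coupling and contraction, 5 were higher and 7 lower in ET3x2 than in S (41.4%, beside 24.8% of all probe sets). In ET3x1, 6 were higher and 7 lower (44.8%, beside 30.4%). Gna11, for a G protein that couples endothelin receptors to phospholipase C, was higher in both (0.35 ± 0.06, adjusted p = 0.00048, and 0.31 ± 0.06, adjusted p = 0.000854), against the same 10 S rats. Mylk, the gene of myosin light chain kinase, which starts smooth muscle contraction, was lower in ET3x2 (-0.42 ± 0.07, adjusted p = 0.00013). The list's median differences were 0.01 in ET3x2 and -0.04 in ET3x1. Between ET3x2 and ET3x1, Rgs2, an inhibitor of Gq signals, was higher in ET3x2 (0.20 ± 0.04, adjusted p = 0.00423), and the receptor kinase gene Grk2 was lower (-0.29 ± 0.06, adjusted p = 0.00734). With the Gapdh ratio as a covariate Grk2 was not called (-0.25, adjusted p = 0.0735).

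Gnai2 encodes an inhibitory G protein that endothelin receptors can use. It was the only one of the 82 pathway genes called for a difference of salt responses between ET3x1 and S (1.22%, beside 2.54% of all probe sets). Its values in S were 9.07, 9.20, 9.76, 9.37 and 9.57 on low salt and 9.96, 10.02, 10.04, 9.96 and 9.76 on high salt. In ET3x1 they were 9.97, 10.40, 10.06 and 10.10 on low salt and 9.70, 9.43, 9.87 and 9.77 on high salt. The S rats were higher on high salt but for a tie at 9.76, and every ET3x1 rat was lower on high salt than any on low salt. The ranges of the ET3x1 diets did not overlap for 14.8% of all probe sets either.

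Gnai2 rose with salt in S by 0.55 ± 0.12 (adjusted p = 0.016) and fell in ET3x1 (-0.44 ± 0.13, adjusted p = 0.032). These calls were lost without 3 and 5 of the 26 rats in turn (adjusted p up to 0.0633 and 0.143). The call in S was also lost with beta-actin (0.53, adjusted p = 0.0567) or bioD minus bioC (0.53, adjusted p = 0.073) as a covariate. Those fits called 0.467% and 0.425% of all probe sets, beside 1.22% as reported. The S call was lost too without the pair of high-salt S rats of lowest bioD minus bioC (0.53, adjusted p = 0.146). The call in ET3x1 was lost with the Gapdh ratio (-0.35), beta-actin (-0.52) and bioD minus bioC (-0.41). The salt response of ET3x1 minus that of S was -0.99 ± 0.18 (adjusted p = 0.00287), beside 2.54% of all probe sets called. With the Gapdh ratio as a covariate it was -0.91 (adjusted p = 0.159) and with bioD minus bioC -0.94 (adjusted p = 0.0726), and it was called whichever 1 rat was left out.

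Of 16 measured genes of the nitric oxide and prostaglandin arm, which the B receptor uses, 3 were higher and 4 lower in ET3x2 than in S (43.8%, beside 24.8% of all probe sets). Ptges2, a prostaglandin E synthase gene, was higher (0.44 ± 0.06, adjusted p = 5.42e-05), and Gucy1a1 (-0.40 ± 0.08, adjusted p = 0.00117) and Gucy1b1 (-0.24 ± 0.07, adjusted p = 0.0161), the subunits of the nitric oxide receptor guanylyl cyclase, were lower. In ET3x1, 2 were higher and 2 lower, with Ptges2 at 0.39 ± 0.06 (adjusted p = 9.34e-05), Ptges at 0.28 ± 0.04 (adjusted p = 2.53e-05) and Gucy1a1 at -0.39 ± 0.08 (adjusted p = 0.000891). The list's median difference was -0.01 in both strains.

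With salt over the 3 strains, 3 of these 16 rose and 2 fell (31.2%, beside 9.37% of all probe sets). Ptger3, a prostaglandin E2 receptor gene, rose by 0.24 ± 0.06 (adjusted p = 0.00948), Gucy1b1 by 0.19 ± 0.06 (adjusted p = 0.0423) and Cav1, for caveolin-1, which holds nitric oxide synthase inactive, by 0.17 ± 0.05 (adjusted p = 0.025). With the Gapdh or the beta-actin ratio as a covariate none of the 3 was called, at 0.21 and 0.28 for Ptger3, 0.11 and 0.18 for Gucy1b1, and 0.14 and 0.20 for Cav1. Those fits called only 0.0902% and 1.2% of all probe sets. Gucy1b1 lost its call without any of 16 of the 26 rats (adjusted p up to 0.0887), and it and Cav1 lost theirs without the pair of high-salt S rats (adjusted p = 0.0794 and 0.0591). In ET3x1, Ptgs1, the cyclooxygenase-1 gene, fell with salt (-0.28 ± 0.07, adjusted p = 0.0138), and no other gene of the list was called. Its call was lost with each of the 3 quality covariates (-0.25, -0.28 and -0.26) and without 3 of the 26 rats in turn (adjusted p up to 0.0827).

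Of 10 measured genes of sodium and water transport on which endothelin-1 acts, Aqp3, a water channel gene of the collecting duct, was lower in ET3x2 than in S (-0.35 ± 0.08, adjusted p = 0.00342). It was the only one called there (10.0%, beside 24.8% of all probe sets). In ET3x1, 30.0% of the list was called against S, beside 30.4% of all probe sets. There Scnn1g, a subunit gene of the epithelial sodium channel, was lower than in S (-0.19 ± 0.05, adjusted p = 0.00612), and Hsd11b2 (0.18 ± 0.07, adjusted p = 0.0404) and Scnn1b (0.14 ± 0.05, adjusted p = 0.0302), a further subunit, were higher. Both lost their calls without single rats (12 and 4 of the 26, adjusted p up to 0.0932 and 0.0598) and with the Gapdh ratio (0.11 and 0.13) or beta-actin (0.12 and 0.11) as a covariate, and Hsd11b2 was at 0.09 after quantile normalization (adjusted p = 0.19). Without the pair of high-salt S rats they were at 0.18 (adjusted p = 0.0759) and 0.13 (adjusted p = 0.0676). With salt in ET3x1, Scnn1g rose by 0.33 ± 0.08 (adjusted p = 0.00438) and Avpr2, the vasopressin receptor gene of the collecting duct, fell (-0.27 ± 0.08, adjusted p = 0.0371), and neither was called with the Gapdh ratio (0.34 and -0.33) or beta-actin (0.26 and -0.23) as a covariate. With bioD minus bioC, Scnn1g was called (0.33, adjusted p = 0.0251) and Avpr2 was at -0.15 (adjusted p = 0.608), and Avpr2 lost its call without 6 of the 26 rats in turn (adjusted p up to 0.0973). The list's median differences were -0.05, -0.06 and -0.06 in these 3 comparisons, beside 0.0108, -0.0112 and -0.0113 over all probe sets.

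**Figure D5:**
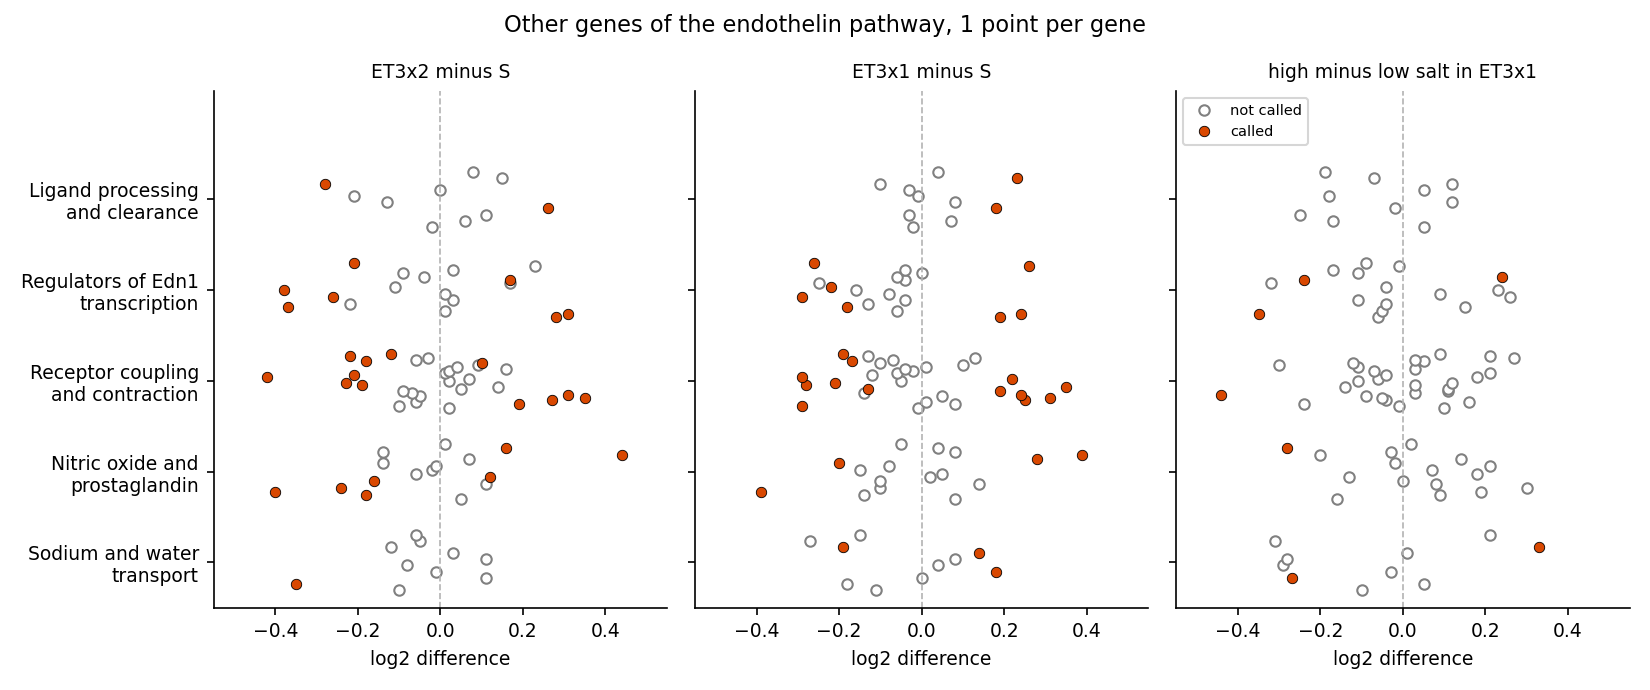
Each point is the log2 difference (horizontal axis) of 1 gene of the 5 pathway lists (rows) for ET3x2 minus S, ET3x1 minus S and salt in ET3x1, with genes called by limma in orange. Called genes lie on both sides of 0 in the strain comparisons, 12 higher and 17 lower in ET3x2 and 15 higher and 14 lower in ET3x1, and 7 were called for salt in ET3x1.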

How the data were processed

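Per the labels, cRNA of 1 kidney from each of 26 rats was hybridised to RAE230A and RAE230B chips, and the deposited tables hold the authors' log2 values, 1 column per array. Array medians are nearly equal, so the values were normalized before deposit; how is not given in the sources used here. Members, gene lists and tests were chosen with earlier results of these data known. Symbols came from the platform annotation, updated through RefSeq (GRCr8). Each chip was fitted with limma 3.58.1 (R 4.3.3) on the 6 groups, without a brightness filter, with an intensity trend and 20 residual degrees of freedom. Benjamini-Hochberg adjustment ran over both chips, 31042 probe sets. All p-values written as adjusted are limma's unless an exact test is named. Control probe sets (57 per chip) were left out, and 100 probe sets that both chips carry were tested once, on RAE230A. Up to 3 called genes of largest change per list and comparison could be named, from the brightest probe set of each gene. Gnai2 was given per rat after its values were seen. Permutation tests were two-sided (scipy 1.17.1; 100000 draws for the correlations). The fit was tested on simulated data. The number of arrays limits the precision.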

Additional observations from a re-analysis of the deposited data

Results flagged for a closer look

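Among the 12 groups examined for Edn1 and Ece1, 3 held a rat set apart from the others by Dixon's test, which chance does in about 1 in 20 groups. These were the highest low-salt S rat for Edn1 at 6.76, the lowest high-salt S rat for Edn1 at 6.31 and the lowest low-salt ET3x2 rat for Ece1 at 8.49. The rat at 6.76 widened the spread shared by all Edn1 tests: without it the ET3x1 salt difference of Edn1 was called (adjusted p = 0.0216).

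The salt responses of 2 genes named beside the endothelin genes differed between ET3x1 and S by the test of the difference itself, which called 2.54% of all probe sets. Gnai2 differed by -0.99, rising in S and falling in ET3x1. That call was lost with the Gapdh ratio (-0.91, adjusted p = 0.159) or bioD minus bioC (-0.94, adjusted p = 0.0726) as a covariate. The calls of Gnai2 within each of these strains were lost under some settings as well. Ptprb, the endothelial phosphatase gene, differed by -0.52, a call that was lost with the Gapdh ratio (-0.55, adjusted p = 0.189) or bioD minus bioC (-0.43, adjusted p = 0.442) as a covariate and when 1 rat was left out (adjusted p up to 0.0635).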

How the results depend on the processing

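The 32 differences of Edn1 and Ece1 were recomputed under 39 alternatives, 26 of which left out 1 rat, giving 1198 values. Of these 1191 kept their side of the threshold and 7 gained a call; 31 values that were uncalled throughout changed sign. Array weights gave 1 call for ET3x1 minus S, 1 for salt within strains and 1 for strains within diets, each against 0 as reported. Leaving out 1 rat gave 0 to 1 calls for salt within strains and 0 to 1 for strains within diets. The bioD minus bioC pair was chosen on RAE230A and left out of both chips, after the data were seen.

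Pathway genes called fell, when probe sets below the chip median were left out, to 18 for ET3x2 minus S, 19 for ET3x1 minus S and 5 for ET3x2 minus ET3x1, with fewer genes tested. In the brightest 25% of probe sets they were 14, 12, 4, 3 for salt over strains and 3 for salt in ET3x1. Array weights gave 13 for ET3x2 minus ET3x1, 17 for salt over strains and 21 for salt in ET3x1. The Gapdh ratio as a covariate gave 2, 0 and 0, beta-actin 0 for salt over strains and 3 in ET3x1, and bioD minus bioC 4 in ET3x1. Without the pair of S rats, salt over strains had 3. With 1 rat left out, the counts ran from 21 to 31 for ET3x2 minus S, 24 to 32 for ET3x1 minus S, 6 to 10 for ET3x2 minus ET3x1, 4 to 11 for salt over strains (4 without ET3x1 low-salt replicate 3 or ET3x2 high-salt replicate 1 or 3, 11 without ET3x2 high-salt replicate 4) and 2 to 10 for salt in ET3x1 (2 to 4 without ET3x1 high-salt replicate 1, 2 or 3 or low-salt replicate 2 or 3). The cause of these shifts was not tested. Of 2138 values of named list genes, 236 lost their call and none changed sign with a call.

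The mean over a gene's probe sets gives the same value, since each member has 1, and a fit of the compared strains alone was not run for salt over the 3 strains, which needs all of them. The brightest-quarter alternative holds neither member, and the one above the chip median lacks Edn1. No paired analysis was possible because replicate numbers only name the rats of a group. Dim signal limits Edn1: at the 30.0th percentile it was read below the chip median.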
